A study of Mus musculus with 6 samples.

Results

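A set of 9 genes of the smooth muscle and myofibroblast cytoskeleton were followed in mouse cornea 12 months after an open-field blast. They were taken by symbol from the 6 deposited count tables, and all 9 of 9 were found among the 22007 gene symbols of the series. The list was chosen with earlier results of these data known. The genes are Acta2, Actg2, Tagln, Cnn1, Myl9, Tpm1, Tpm2, Cald1 and Vim. The blast group, OFBI, were male C57BL/6J mice exposed once, awake and without sedation, to 350 g of C-4 explosive at 3 m, and the Naive group were male C57BL/6J mice that carry the same 12-month label. Each group had 3 libraries of total corneal RNA, each prepared from pooled corneas and described as a biological replicate, and neither the number of corneas in a pool nor the age of the mice at blast is given in the sources used here. The series title names immune and matrix remodeling, and the comparison here asks whether contractile genes differed between the groups at that late time.

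Smooth muscle cells and myofibroblasts pull on their surroundings through bundles of actin and myosin. In the cornea, keratocytes of the stroma can turn into fibroblasts and then into myofibroblasts after a wound, and alpha smooth muscle actin, the product of Acta2, is the usual marker of that last state. Much of this gene set is controlled by serum response factor (SRF) with its MRTF and myocardin partners, which bind a short A/T-rich element called the CArG box, and by TEAD factors at MCAT elements. Several of the genes are not particular to muscle: vimentin marks most mesenchymal and white blood cells, and the tropomyosin and caldesmon genes are used by many cell types.

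The 9 genes did not move as a block. Tagln, Tpm1, Cald1 and Vim rose after OFBI, by 3.34-fold, 3.84-fold, 2.64-fold and 3.19-fold, while Acta2 and Myl9 had fitted values of 0.535 and 0.861 times the Naive level and did not pass the test. Cnn1, Tpm2 and Actg2 were not called either, and Actg2 had no count in any OFBI library. Acta2, which names the myofibroblast state, and Tagln thus did not rise together, and the genes are referred to below by name rather than as a myofibroblast signature.

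Library depth differed with the group. The Naive libraries held 41971752 to 47809779 estimated counts and the OFBI libraries 1173472 to 3410476, OFBI replicate 3 being the shallowest. About 4 deposited counts appear to stand for 1 sequenced fragment, so low OFBI counts rest on few fragments. Depth and group cannot be told apart, and all libraries carry batch number 4. Corneal epithelium markers were present in all libraries, with 28053 to 28815 CPM (depth-scaled counts, with TMM factors) summed over 8 genes in the Naive and 58192 to 77137 in the OFBI libraries. Of 13941 genes tested, 18.8% were called (edgeR, adjusted p below 0.05), with 8.41% higher and 10.4% lower. Of the called genes 44.8% were thus higher, and 29.8% were with library size as the only scaling, which called the same number of the 9 genes (4).

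Promoter sequence was available for 7 of the 9 genes, all but Actg2 and Tagln, with 8 start sites in all. Those of Acta2, Myl9 and Tpm1 are shown as examples of windows that hold letter matches to the elements marked below. Acta2 and Myl9 were not called and Tpm1 rose. A Cald1 window that also holds an MCAT match is not shown. Each sequence is the 250 bases before the RefSeq start site, 5′ to 3′ on the gene's strand (GRCm38.p6). Capitals mark the CArG box (CC, then A or T at each of 6 positions, then GG), a CArG-like box with a single G or C in that core, and the MCAT element CATTCC on either strand.
Acta2 (chr19:34255374-34255623, minus strand): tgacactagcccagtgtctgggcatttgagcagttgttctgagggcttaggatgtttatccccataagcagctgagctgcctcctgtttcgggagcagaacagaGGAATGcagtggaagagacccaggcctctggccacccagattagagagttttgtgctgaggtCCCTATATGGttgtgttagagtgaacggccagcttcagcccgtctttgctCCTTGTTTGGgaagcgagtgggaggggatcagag
Myl9 (chr2:156775214-156775463, plus strand): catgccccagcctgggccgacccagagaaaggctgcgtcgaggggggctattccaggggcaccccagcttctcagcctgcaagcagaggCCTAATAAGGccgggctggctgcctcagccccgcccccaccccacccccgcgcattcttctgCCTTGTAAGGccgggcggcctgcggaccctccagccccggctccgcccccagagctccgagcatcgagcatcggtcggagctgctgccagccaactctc
Tpm1 (chr9:67049214-67049463, minus strand): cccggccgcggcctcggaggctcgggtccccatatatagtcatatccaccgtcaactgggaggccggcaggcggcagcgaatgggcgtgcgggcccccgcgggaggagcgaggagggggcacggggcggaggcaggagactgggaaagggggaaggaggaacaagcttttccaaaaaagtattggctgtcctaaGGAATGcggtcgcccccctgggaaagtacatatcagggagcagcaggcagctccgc
The CArG box was found in 1 of the 8 windows, that of Myl9, and in 1.63% of 32851 mouse promoter windows of the same length (300 bases). CArG-like boxes lay in the windows of Acta2 and Myl9, 2 of 8 against 8.50% of all windows. MCAT elements lay in 3 of 8 windows, those of Acta2, Tpm1 and 1 of the 2 Cald1 starts, against 14.7% of all windows. Searches covered both strands, the elements shown do not overlap, and a match describes the letters only.

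**Figure D1:**
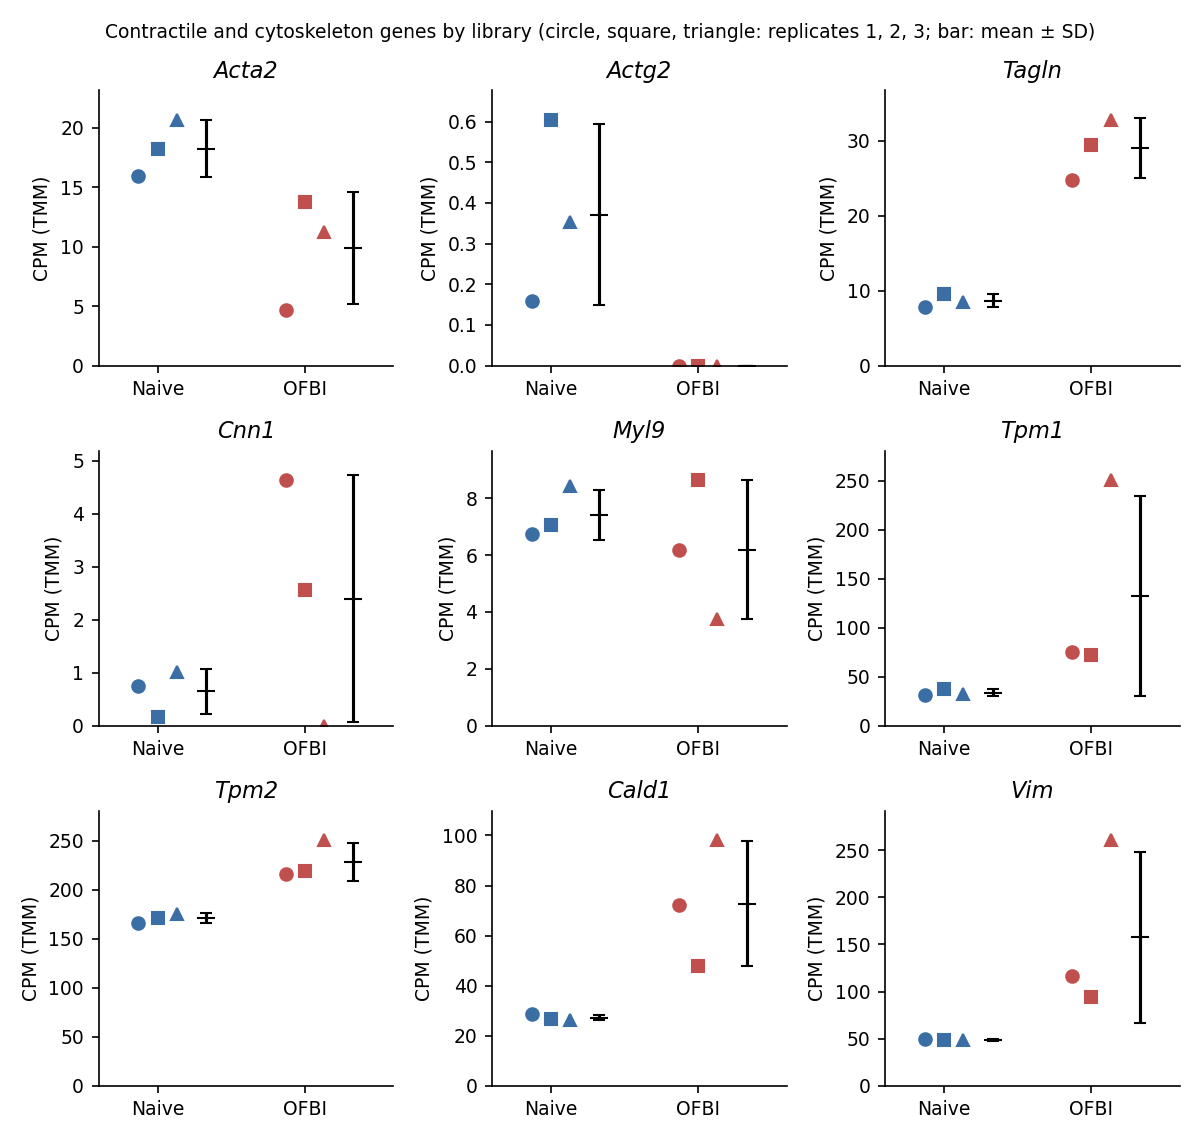
Level of each gene in depth-scaled counts (CPM, TMM, linear axis) in 3 Naive and 3 OFBI libraries, with symbols for replicates and a bar for mean ± SD. Tagln, Tpm1, Tpm2, Cald1 and Vim lie higher in every OFBI library, Acta2 lies lower in every OFBI library, Cnn1 and Myl9 overlap, and Actg2 is at 0 after OFBI.

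Actins form the thin filament on which myosin pulls. Acta2 (ENSMUSG00000035783.9, chromosome 19, 34241090 to 34255590, GRCm38) encodes alpha smooth muscle actin, and its libraries read 15.9, 18.2 and 20.6 CPM in Naive and 4.64, 13.8 and 11.2 CPM in OFBI replicates 1, 2 and 3. All OFBI libraries lay below all Naive libraries, and OFBI replicate 1 was the lowest. The means were 18.2 ± 2.37 and 9.88 ± 4.71 CPM (SD, n = 3), and the difference of -0.90 on the log2 scale (SE 0.46) did not pass (edgeR adjusted p = 0.222). Its 95% interval ran from -1.98 to 0.17, which spans falls as well as a small rise. The OFBI value rests on 70 counts, where the Naive level would give 135 at the OFBI depth. Without OFBI replicate 2, the highest OFBI library, it was called lower by DESeq2 (log2 fold change -1.36, adjusted p = 0.0169) and not by edgeR (-1.39, adjusted p = 0.0805).

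Actg2 (chromosome 6, 83512905 to 83536265), which encodes the gamma smooth muscle actin of the gut and other hollow organs, was close to absent in both groups. Its counts were 8, 28 and 16 in the Naive libraries and 0 in each OFBI library, and it did not pass the filter on low counts. At its Naive mean of 0.371 CPM the OFBI libraries together would have given 2.76 counts, less than 1 fragment, and 3 fragments over the OFBI group equal 1.62 CPM. A fall of Actg2 was therefore not detectable at this depth, and no fold is given. The coding sequences of the actin genes are nearly identical, and how reads that fit several of them were counted is not given in the sources used here, so the split between Acta2, Actg2 and the other actins is uncertain.

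Among the regulators of the filament and its motor, Tagln and Cald1 rose, while Cnn1 and Myl9 were not called. Tagln (ENSMUSG00000032085.5, chromosome 9, 45929619 to 45936058) encodes transgelin, or SM22 alpha, an actin-bundling protein that appears early in smooth muscle and myofibroblast differentiation. It stood at 7.84, 9.55 and 8.50 CPM in the Naive and at 24.7, 29.5 and 32.7 CPM in the OFBI libraries. Every OFBI library lay above the Naive range, and none of them stood apart from the others. On the log2 scale Tagln rose by 1.74 (SE 0.29, edgeR adjusted p = 0.0147), with the smallest p among the 8 tested genes, on 207 OFBI counts where the Naive level would give 64.1. The strand setting of the counting is unknown here, and Tagln shares 108 of its 1988 exon bases with Pcsk7 on the opposite strand, and Pcsk7 itself had 37.1 CPM in Naive and 35.8 CPM in OFBI corneas and was not called (log2 difference -0.04, edgeR adjusted p = 0.939).

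Cnn1 (chromosome 9, 22099216 to 22109630) encodes calponin 1, an inhibitor of the myosin motor that is largely restricted to smooth muscle. Its counts were 38, 8 and 46 in the Naive libraries and 15, 8 and 0 in the OFBI libraries, or 0.751, 0.173 and 1.01 CPM against 4.64, 2.56 and 0 CPM. The groups overlapped, because OFBI replicate 3 had no count. The log2 difference of 2.05 (SE 0.96, edgeR adjusted p = 0.190) thus rests on 23 OFBI counts, about 6 fragments, and DESeq2 called it only without OFBI replicate 3 (log2 fold change 2.51, adjusted p = 0.0306).

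Cald1 (ENSMUSG00000029761.16, chromosome 6, 34598500 to 34775473) encodes caldesmon, which ties actin to myosin and holds back the motor in both its smooth muscle and non-muscle forms. It had 28.6, 26.8 and 26.3 CPM in the Naive and 72.0, 48.0 and 98.2 CPM in the OFBI libraries, with no overlap. The rise was 1.40 on the log2 scale (SE 0.28, edgeR adjusted p = 0.0217). The tables give 1 value per gene, so the smooth muscle and non-muscle forms of caldesmon were not resolved, and genes on the opposite strand (Gm13861, Gm14547 and Npn2) lie within its span.

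Myl9 (chromosome 2, 156775420 to 156781658) encodes the smooth muscle regulatory light chain of myosin, the switch that is phosphorylated when the cell contracts. Its levels were 6.74, 7.07 and 8.42 CPM in the Naive and 6.18, 8.64 and 3.74 CPM in the OFBI libraries. The OFBI libraries straddled the Naive ones, and OFBI replicate 3 was the lowest on 4 counts, or a single fragment. The log2 difference was -0.22 (SE 0.48, edgeR adjusted p = 0.799), and its 95% interval of -1.35 to 0.92 is wide in both directions.

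Tropomyosins lie along the actin filament and set which proteins can reach it. Tpm1 (ENSMUSG00000032366.15, chromosome 9, 67022590 to 67049406) read 31.5, 37.5 and 32.2 CPM in the Naive and 74.8, 71.7 and 250.7 CPM in the OFBI libraries. The groups did not overlap, but OFBI replicate 3 lay far above the other two. The rise on the log2 scale was 1.94 (SE 0.50, edgeR adjusted p = 0.0383) in the fit to every library and 1.11 (SE 0.15, edgeR adjusted p = 0.00693) without OFBI replicate 3, so the size rests on that library and the call does not. Tpm1 is also the main tropomyosin of heart muscle. Cardiomyocyte markers, 10 genes of which 5 of 9 tested were called higher and none was at 0 in all OFBI libraries, summed to 18.6 to 23.7 CPM in the Naive and to 174, 29.1 and 237 CPM in OFBI replicates 1, 2 and 3. Their part in the Tpm1 value was not tested. Skeletal muscle markers were not raised in sum, at 376 to 384 CPM in the Naive and 281 to 414 CPM in the OFBI libraries. Of these 12, 2 were called higher and 1 lower. For both marker lists, the shares over all genes tested were 8.41% higher and 10.4% lower.

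Tpm2 (chromosome 4, 43514711 to 43523765), the beta tropomyosin gene, was the most abundant of the 9. The Naive libraries had 166, 172 and 175 CPM and the OFBI libraries 216, 219 and 251 CPM. No library of one group entered the range of the other, and the spread was small. The log2 fold change of 0.42 (SE 0.13) missed the threshold with edgeR (adjusted p = 0.0630) and passed with DESeq2 (adjusted p = 0.00224).

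Vim (ENSMUSG00000026728.9, chromosome 2, 13573927 to 13582826) encodes vimentin, the intermediate filament of keratocytes, fibroblasts, endothelium and white blood cells. It had 49.7, 48.0 and 48.2 CPM in the Naive and 117, 94.4 and 261 CPM in the OFBI libraries. The Naive libraries were nearly identical, and OFBI replicate 3 was again the highest. Vim rose by 1.67 on the log2 scale (SE 0.37, edgeR adjusted p = 0.0273), and by 1.11 (SE 0.14, edgeR adjusted p = 0.00616) without OFBI replicate 3. Macrophage markers come from cells that also make vimentin. Their sum was 92.7 to 93.9 CPM in the Naive and 116 to 156 CPM in the OFBI libraries. Lyz2 was the most abundant of them. Of 9 tested, 3 were called higher (C1qa, C1qb and C1qc) and 0 lower, against 8.41% and 10.4% of all genes. The median of the 9 was 0.24 on the log2 scale, with 6 above 0. In every OFBI library 2 of the 9 lay lower, as did 29.9% of all genes. Cd163 had no OFBI counts, its 0.754 CPM in Naive corneas being under the 1.62 CPM floor. Hepatocyte markers summed to 19.4 to 29.9 CPM in the Naive libraries and to 141, 152 and 949 CPM in OFBI replicates 1, 2 and 3. Only 4 of the 10 listed passed the filter on low counts, and all 4 were called higher, against 8.41% of all genes. A gene low in Naive corneas can pass that filter through its OFBI counts, so these calls are not a separate result. The part of either cell type in the Vim value was not tested, and in bulk tissue more cells of a type and more RNA per cell cannot be told apart.

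**Figure D2:**
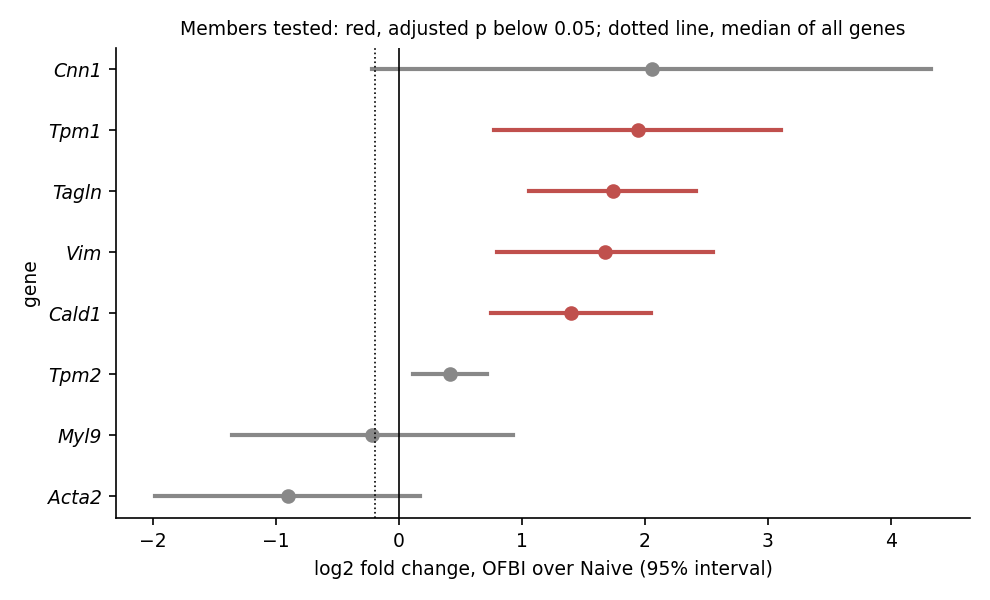
Log2 fold change of OFBI over Naive for the 8 genes that passed the filter, with 95% intervals from the edgeR fit, red where the adjusted p was below 0.05. Tagln, Tpm1, Cald1, Vim and Tpm2, which was not called, lie wholly above 0, while the intervals of Cnn1, Myl9 and Acta2 cross 0, and the dotted line marks the median of all genes at -0.20.

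Counted over the set, 4 of the 8 tested genes rose and none fell, where 8.41% of all genes tested were higher and 10.4% lower. At an unadjusted p below 0.05 the count was 5, against 32.9% of all genes. The OFBI libraries lay wholly above the Naive libraries for 5 of the 8, against 16.4% of all genes, and wholly below for Acta2, against 29.9%. The median log2 fold change of the 8 was 1.54 and that of all genes -0.20. All 4 calls were lost with edgeR when any 1 Naive library was left out, where the adjusted p ranged from 0.0729 to 0.158 and the log2 fold changes from 1.42 to 2.07. In those same fits, without Naive replicate 1, 2 or 3, edgeR called 97, 0 and 96 of all genes higher and 9, 0 and 8 lower, with an unadjusted p below 0.05 for 2611, 2441 and 2615 genes and for 5 members each time. DESeq2 and limma-voom called Tagln, Tpm1, Cald1 and Vim in each of the 3.

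The order of the levels changed as well. Levels were set per kilobase of exon sequence, with the caution that the annotated exons of Cald1 and Tpm1 join several transcript forms and so lower their values. In Naive corneas Tpm2 led with 58.8 ± 1.59 CPM per kilobase (SD, n = 3), ahead of Vim with 10.3 ± 0.199, Acta2 with 8.31 ± 1.08, Myl9 with 6.38 ± 0.765, Tpm1 with 5.21 ± 0.507 and Tagln with 4.34 ± 0.434. Cald1 followed with 2.26 ± 0.0985, and Actg2 with 0.239 ± 0.144 and Cnn1 with 0.236 ± 0.157 differed by less than their SD. After OFBI, Tpm2 still led with 78.5 ± 6.63 CPM per kilobase (SD, n = 3), and Vim with 33.2 ± 19.1, Tpm1 with 20.4 ± 15.8 and Tagln with 14.6 ± 2.02 came next, within 1 SD of one another. Acta2, in the third place in Naive corneas, came after Cald1 (6.04 ± 2.08) and Myl9 (5.33 ± 2.11) with 4.50 ± 2.15 CPM per kilobase, and these 3 did not differ beyond their SD.

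Ratios of counts within 1 library do not depend on how libraries are scaled. The pairs were chosen after the values were seen and are given without a test. For every Acta2 count there were 0.493, 0.526 and 0.412 Tagln counts in the Naive libraries and 5.33, 2.14 and 2.92 in the OFBI libraries, a 6.78-fold difference of the geometric means. Vim counts per Acta2 count were 3.13, 2.64 and 2.34 in the Naive and 25.2, 6.86 and 23.3 in the OFBI libraries. The groups stood apart in both ratios, and also in those of Cald1 and Tpm1 to Acta2, while the ratio of Myl9 to Acta2 overlapped. The separations follow from the levels, since Acta2 was lower and each of these numerators higher in every OFBI library. They also share 1 denominator, Acta2, with 15, 43 and 12 counts in OFBI replicates 1, 2 and 3. Tagln and Vim, in contrast, kept a similar ratio, 0.158 to 0.199 in the Naive and 0.125 to 0.312 in the OFBI libraries, so that the OFBI libraries lay on both sides of the Naive ones. The ratio of Tpm1 to Tpm2 was 0.183 to 0.219 in the Naive libraries and 0.347, 0.327 and 1 in the OFBI libraries.

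**Figure D3:**
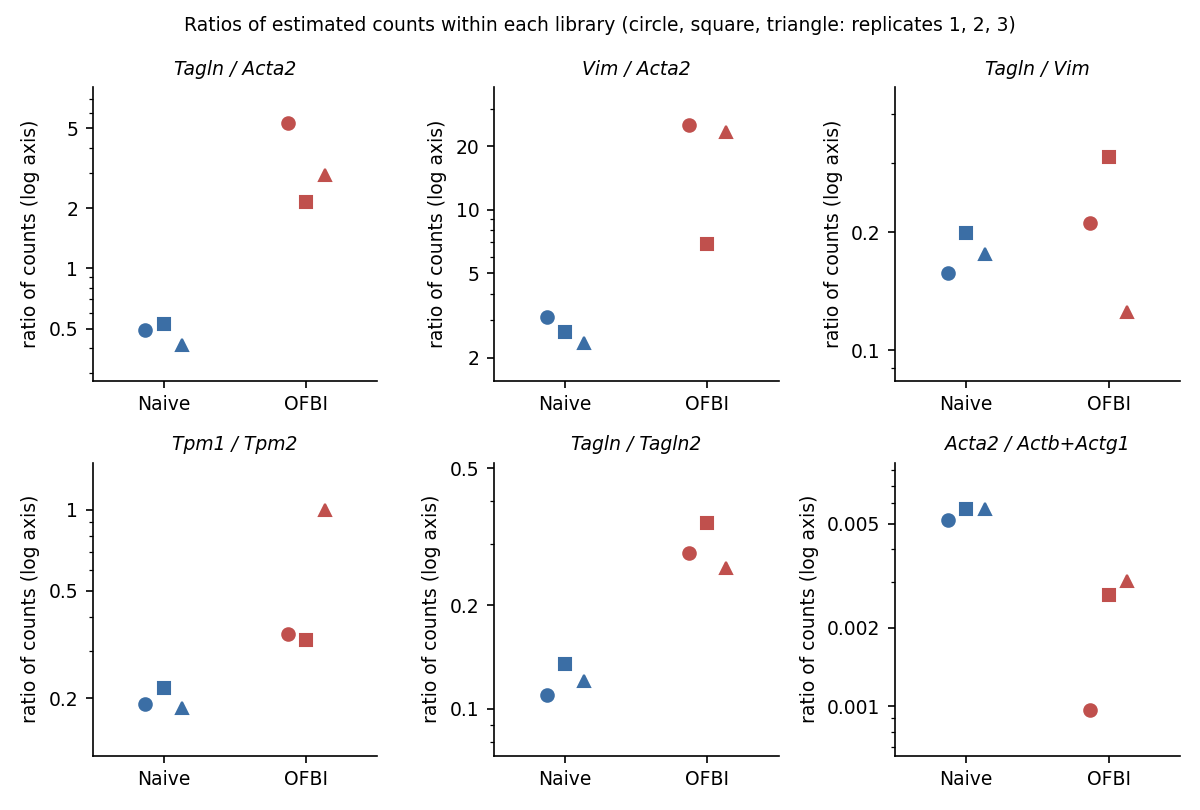
Ratios of estimated counts between pairs of genes within each library (log axes), by group, with symbols for replicates. The ratios of Tagln and Vim to Acta2, of Tpm1 to Tpm2 and of Tagln to Tagln2 are higher in every OFBI library, that of Acta2 to the cytoplasmic actins is lower in every OFBI library, and that of Tagln to Vim overlaps.

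Most of the 9 genes have close relatives that serve in non-muscle cells. Of 13 such counterparts, 3 rose (Actb, Myh9 and Myh14), 3 fell (Actg1, Myl12a and Myl12b) and 7 were not called, where 8.41% of all genes were higher and 10.4% lower, and the median was -0.01 on the log2 scale. The cytoplasmic actins parted, Actb rising by 1.03 on the log2 scale (SE 0.17, edgeR adjusted p = 0.0139) and Actg1 falling, at -0.67 (SE 0.15, edgeR adjusted p = 0.0280). Myh14, the most abundant of the list, rose by 1.36 (SE 0.20) and Myh9, a non-muscle myosin heavy chain, by 0.81 (SE 0.11). Acta2 made up 0.00517, 0.00572 and 0.00569 counts per count of Actb and Actg1 together in the Naive libraries. In the OFBI libraries it made up 0.000972, 0.00268 and 0.00302, without overlap. Tagln2, the transgelin of other cells, differed by 0.49 on the log2 scale (SE 0.20, edgeR adjusted p = 0.133), and the ratio of Tagln to Tagln2 went from 0.110 to 0.135 in the Naive libraries to 0.255 to 0.346 in the OFBI libraries. Tpm3 and Tpm4 had log2 values of -0.06 (SE 0.18) and -0.01 (SE 0.16) and were not called. The non-muscle light chains Myl12a and Myl12b fell by 0.91 and 1.21 on the log2 scale (edgeR adjusted p = 0.0407 and 0.00993), where the value of Myl9 was -0.22. Cnn2 and Cnn3, the calponins of non-muscle cells, had log2 fold changes of -0.08 and -0.40 and were not called.

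Among 20 other genes of the smooth muscle contractile apparatus and its regulation, 18 were tested, 4 rose, none fell and 14 were not called. The list median was 0.37 on the log2 scale. Of all genes tested, 8.41% were higher and 10.4% lower, with a median of -0.20. Those that rose were Cavin1, a coat protein of caveolae (log2 rise 1.65, SE 0.17, edgeR adjusted p = 0.00666), the intermediate filament genes Synm (1.59, SE 0.28) and Des (1.37, SE 0.30), and Tns1 (0.54, SE 0.15), a focal adhesion protein. Of 7 smooth muscle markers (Myh11, Lmod1, Smtn, Synpo2, Des, Cnn1 and Actg2) Des alone was called. Myh11, the smooth muscle myosin heavy chain, had 23.5 CPM in Naive and 15.2 CPM in OFBI corneas, a log2 difference of -0.57 (SE 0.38, edgeR adjusted p = 0.341) in which each OFBI library lay below each Naive library. Smtn and Lmod1 differed by -0.03 (SE 0.80) and 0.35 (SE 1.19) on the log2 scale and were not called. Synpo2 and Mylk, the myosin light chain kinase, lay higher in every OFBI library, at 2.14 and 1.32 times the Naive level, and were not called either (edgeR adjusted p = 0.140 and 0.111). Pln, for phospholamban, differed by 3.85 on the log2 scale (SE 1.30, edgeR adjusted p = 0.0833) with OFBI replicate 2 at 0, and Ppp1r14a and Kcnmb1 were at 0 in all OFBI libraries and not tested, with Naive means of 0.418 and 0.0557 CPM under the 1.62 CPM floor. Des encodes desmin, which is shared with striated muscle, and its ratio to Vim overlapped between the groups, at 0.262 to 0.332 in the Naive and 0.133 to 0.405 in the OFBI libraries. Among 8 tested striated muscle counterparts, Myl3 (log2 rise 2.92, SE 0.57) and Des rose and none fell. Acta1, the skeletal muscle actin, and Actc1, the cardiac actin, were not called, with log2 differences of 0.09 (SE 0.25) and 1.13 (SE 1.18).

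**Figure D4:**
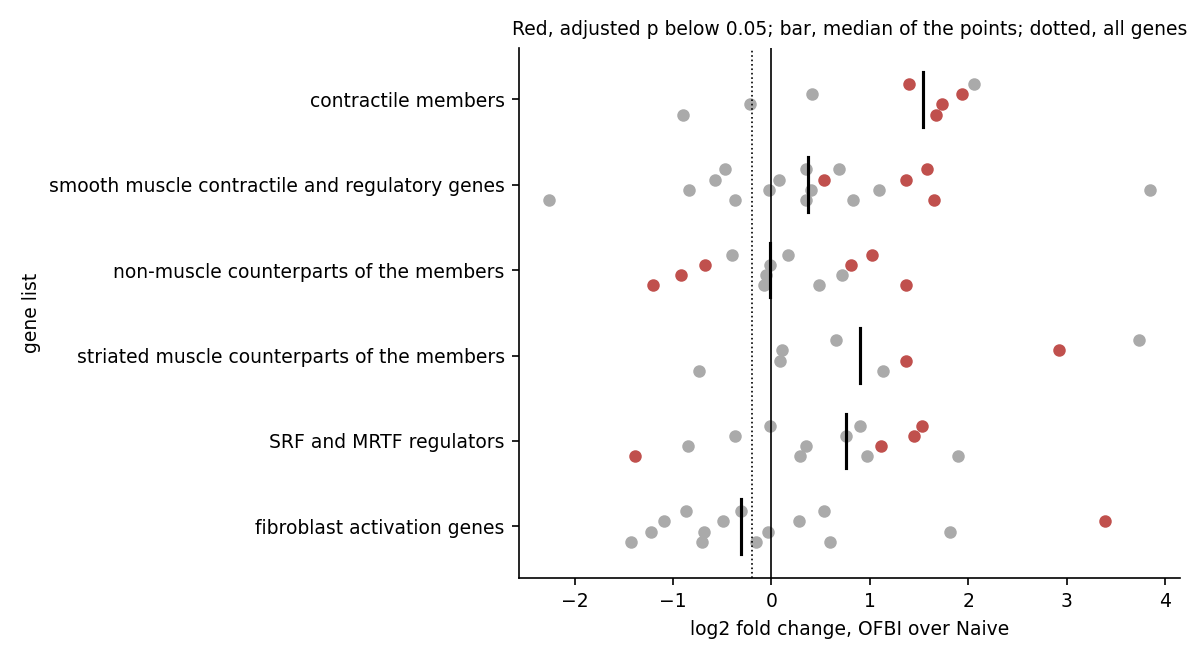
Log2 fold change of OFBI over Naive for the tested genes of 6 lists that had counts in at least 1 OFBI library, red where the edgeR adjusted p was below 0.05, with the list median as a bar. The 9-gene list has its median at 1.54 and holds no called fall, while the non-muscle counterparts spread to both sides of 0 around -0.01.

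The transcription factors that act on these genes were mixed. Of 13 tested SRF, MRTF, TEAD and related regulators, Klf5 (log2 fold change 1.53, SE 0.18), Yap1 (1.45, SE 0.28) and Tead3 rose, and Mkl2, which encodes MRTF-B, fell by 1.39 on the log2 scale (SE 0.29, edgeR adjusted p = 0.0245). Srf itself had 80.4 CPM in Naive and 137 CPM in OFBI corneas, a log2 difference of 0.76 (SE 0.22) that missed the threshold (edgeR adjusted p = 0.0536). Mkl1, for MRTF-A, was not called (0.29, SE 0.25), and Myocd, the smooth muscle coactivator, was not tested, at 0.317 and 0.412 CPM. Among 13 tested SRF target genes of the cytoskeleton outside the 9, Actb and Myh9 rose and none fell. Their median was 0.01 on the log2 scale. For both lists, the shares over all genes tested were 8.41% higher and 10.4% lower, with a median of -0.20.

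Of 16 fibroblast activation genes tested, 2 were called, against 18.8% of all genes. Thy1 rose from 3.60 to 39.3 CPM, with an SD of 36.1 between the OFBI libraries (log2 rise 3.39, SE 0.79, edgeR adjusted p = 0.0305), and Fap, a serine protease of activated fibroblasts, was called lower at 0 counts in every OFBI library. The Naive level of Fap, 0.816 CPM, lies under the 1.62 CPM that 3 fragments over the OFBI group would give, so no fall of Fap can be told at the OFBI depth. Itgb3, an integrin subunit, lay higher in every OFBI library (log2 difference 1.81, SE 0.63) and was not called (edgeR adjusted p = 0.0922), and neither was Cyr61, a matricellular protein and the most abundant of the list (-0.31, SE 0.19). Thy1 is carried by fibroblasts and, in mice, also by T cells. Over the 15 genes with OFBI counts the median was -0.31 on the log2 scale. Keratocyte markers, from the cells that give rise to corneal myofibroblasts, included no called rise among 8 tested and 3 falls (Dcn, Ptgds and Chst5). Of all genes tested, 8.41% were higher and 10.4% lower. The summed keratocyte level was set mostly by Aldh3a1, which the epithelium also makes. Its mean was 6583 CPM in Naive and 8461 CPM in OFBI corneas.

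Cells of vessels and of the iris, which carry much of the smooth muscle of the eye, had these marker levels. Of 7 pericyte markers tested, Notch3 alone rose, and Higd1b was at 0 in all OFBI libraries. The summed level was 1063 to 1176 CPM in the Naive and 1677 to 1966 CPM in the OFBI libraries. It was set mostly by Notch3, at a mean of 1083 CPM in Naive and 1747 CPM in OFBI corneas. The median of the 7 was -0.66 on the log2 scale. Of the 7, 3 lay lower in every OFBI library, where 29.9% of all genes tested did. Among 10 vascular endothelium markers none rose and Tek was called lower at 0 OFBI counts, with a Naive level of 1.38 CPM that is under the 1.62 CPM floor, with sums of 43.7 to 50.8 CPM in the Naive and 29.0 to 75.6 CPM in the OFBI libraries. Pigment cell and iris markers summed to 184 to 200 CPM in the Naive libraries and to 122, 143 and 28.1 CPM in OFBI replicates 1, 2 and 3. All 8 had log2 fold changes below 0, where the median of all genes was -0.20. Tyr and Slc45a2 were called lower, 2 of 8 against 10.4% of all genes. Both calls rest on the absence of counts in the shallow OFBI libraries. Acta2, Myh11 and the pigment cell sum were lower in every OFBI library than in any Naive library, as were 29.9% of all genes tested. The part of these cells in the value of Acta2 was not tested.

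The profile of Acta2 over the 6 libraries was set beside that of each other tested gene, as the root mean square difference of log2 CPM after each gene was centred on its own mean. The 5 closest were Lama2 (0.13), Akr1b7 (0.15), Cyp3a13 (0.15), Xrcc4 (0.15) and Zfp410 (0.16). Of the 7 other tested members Myl9 was the closest with 0.67, in place 2523, and Tagln, with 1.43, stood in place 9332. With 6 libraries and large differences in depth, this is a description of these libraries.

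**Figure D5:**
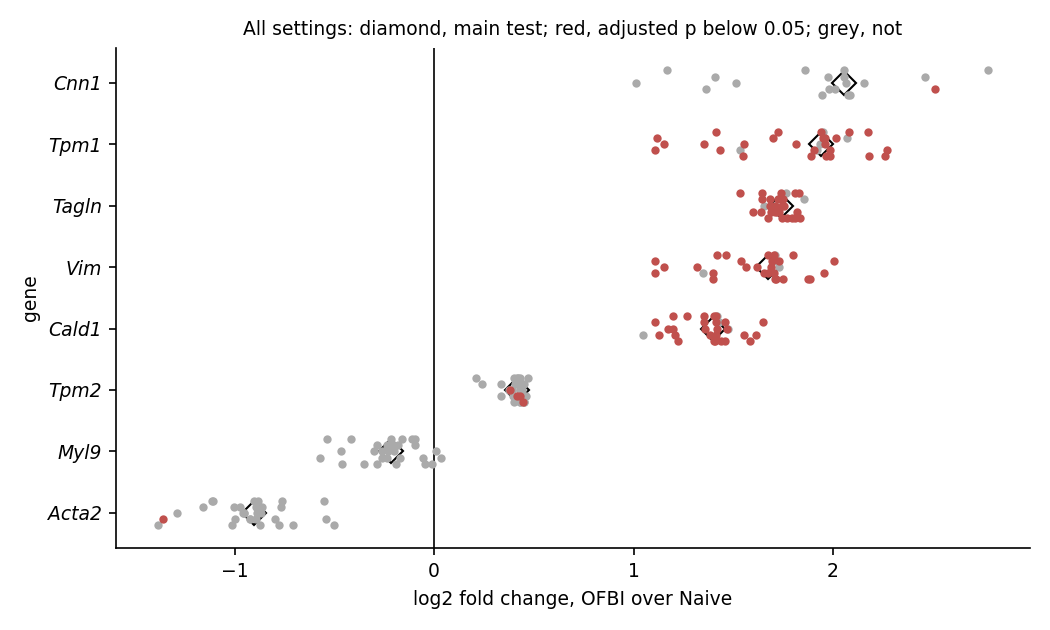
Log2 fold change of OFBI over Naive for each tested gene under the main test (diamond) and each alternative (points, red where the adjusted p was below 0.05). Tagln, Tpm1, Vim and Cald1 stay above 1, Tpm2 stays between 0.21 and 0.47, and Acta2 stays below -0.50. Myl9 ranges from -0.57 to 0.034, and Cnn1 from 1.01 to 2.78 in the fits that give it a value.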

How the data were processed

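Per the labels' protocols, total RNA was column-purified and 2 µg went into a stranded kit. HISAT2, StringTie, DESeq2, FastQC and the build GRCm38 are listed, without role or version, per the submitters' processing notes. The authors deposited 1 table per library of estimated counts (whole numbers, unscaled, no rounding needed). Multiples of 4 made up 39.4% to 50.5% of values from 1 to 40, from which about 4 counts per fragment was inferred. Rows sharing a symbol were summed (64 rows, 31 symbols). The 26 rows whose names had turned into dates were kept apart.

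All genes passing filterByExpr went into one edgeR fit (version 4.0.16, R 4.3.3, TMM, quasi-likelihood, group as the only term, two-sided, Benjamini-Hochberg over all 13941 genes, threshold 0.05). The SE is the log2 fold change divided by the square root of F, and 95% intervals use its t distribution. Floors are 12 counts, or 3 fragments, over the OFBI group and cover counting error only. Coordinates and exon lengths are from GENCODE mouse release 21 (GRCm38, 1-based), in which 21710 symbols matched and which may not be the authors' release. Promoters are from RefSeq.

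The members, lists and tests were chosen with earlier results of these data known. All 9 members are named. The rule for other genes took, per list, the 3 with the smallest p and the most abundant, the direct counterparts of the members and the 5 genes most like Acta2, and for marker lists of other cell types not all of these are named. Further genes were named after their values were seen. The values of 1 list are not reported here. Alternatives were DESeq2 1.42.0, limma-voom (limma 3.58.1), other scalings and filters, a replicate block, a 0.01 threshold, removal of the 10 most abundant genes, thinning, division by 4, a GC and length trend, and leaving out each library. Leaving out libraries with DESeq2 and limma-voom was added after the data were seen. The fits were tested on simulated data.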

Additional observations from a re-analysis of the deposited data

How the results depend on the processing

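Tagln, Tpm1, Cald1 and Vim kept log2 fold changes above 1 under every alternative run, and Acta2 stayed between -1.39 and -0.50. Myl9, at -0.22, ranged from -0.57 to 0.034 when 1 library was left out, turning to 0.034 with DESeq2 and 0.011 with limma-voom without OFBI replicate 3, and was not called in any fit. Library size as the only scaling moved the median of all genes from -0.20 to -0.40, took the share of higher genes among those called from 44.8% to 29.8%, and changed no member's direction or call. Over all genes, 1173 were higher and 1446 lower. DESeq2 called 1854 higher, no filter 910 lower, thinning all libraries 425 lower, and thinning the Naive libraries 560 lower. A threshold of 0.01 left 191 higher, 31 lower and 0 members. Without 1 library, over the 3 tools, 0 to 2438 genes were higher and 0 to 2891 lower, and 0 to 6 members were higher and 0 to 1 lower. Each of the 4 called members was lost with edgeR without Naive replicate 1, 2 or 3, and limma-voom lost Tpm1, Cald1 and Vim without OFBI replicate 1 (adjusted p = 0.0658, 0.0904 and 0.0567) and Tagln without OFBI replicate 2 (0.0511). Without a filter, Tpm1 missed the threshold with edgeR (adjusted p = 0.0527).

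Deviations of same-numbered libraries correlated at -0.0027, -0.018 and 0.0078, which gave no sign that replicate numbers pair the samples. Counting noise at the OFBI depth could hide a pairing, so the check cannot decide it. With a replicate block, 540 genes were higher and 253 lower, and 3 members were called, Tagln being lost (log2 fold change 1.74, edgeR adjusted p = 0.0715). Depth limits Actg2, Cnn1, Myl9 and Acta2 the most. Cnn1 did not pass the filter in the fits to thinned or divided counts or without a Naive library, which give it no value, nor did Myl9 with all libraries thinned.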
